A study of Mus musculus with 12 samples.

Results

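Fibroblast growth factors (FGFs), their receptors and the co-receptor beta-klotho were followed in white adipose tissue of mice kept in the cold. The 9 genes were chosen by symbol: the ligands Fgf1, Fgf2, Fgf9, Fgf10 and Fgf21, the receptors Fgfr1, Fgfr2 and Fgfr3, and the co-receptor Klb. Every probe set of the array that names 1 of these genes was taken, which gave 18 probe sets, out of 18193 genes and 45037 probe sets in all. Of the 18 probe sets, 10 exceeded a log2 signal of 4 on at least 3 arrays and were tested; the other 8 lay near background. Fgf1, Fgf9, Fgfr1, Fgfr2, Fgfr3 and Klb had at least 1 tested probe set, and Fgf2, Fgf10 and Fgf21 had none.

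The series holds 12 Affymetrix expression arrays in 4 groups of 3, from C57/BL6 mice that were male and 6 to 8 weeks old: control and cold, each at 1 week and at 5 weeks. By the labels, the animals were held at 22 °C before they were grouped, and an adaptation of 1 to 3 weeks at 18 °C preceded the move to 4 °C for the cold groups. No genotype, transgene or drug is named, and the labels disagree on the control temperature: sample titles say 30 °C, source names say room temperature. The fat depot is not named. Whether arrays of 1 group are separate animals is not said either, so p-values measure only the spread between samples that may be technical repeats. The adipocyte markers fit the labelled tissue: 8 of 10 were tested, with a mean log2 signal of 12.8 to 13.4 over the arrays, and Plin1 and Cfd were not tested. Ucp1, which makes mitochondria of beige and brown adipocytes release heat, rose in the cold by log2 7.65 at 1 week and 7.71 at 5 weeks (limma, adjusted p = 1.83e-06 and 1.66e-06).

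FGFs are secreted proteins that bind receptor tyrosine kinases on neighbouring cells together with heparan sulfate, a sugar chain of the cell surface and matrix. Fgf21 differs in that it circulates as a hormone and acts on cells that carry both a receptor, mainly Fgfr1 in fat, and Klb. Activated receptors signal through the adaptor Frs2 to the Ras-ERK cascade, which induces its own inhibitors, Sprouty proteins and Dusp6 among them. In fat tissue, Fgf1 and Fgf21 are known for effects on adipocyte metabolism, Fgf2 and Fgf10 for effects on precursor cells.

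The 250 bases before the annotated start of Klb and of Fgf21 are shown because Klb had the smallest adjusted p of the 9 genes at 5 weeks and Fgf21, its hormone, stayed near background. Both were read from RefSeq in build GRCm38.p6, on the strand of the gene, and 7 of the 9 genes have an entry there; Fgfr1 is not in that table. Capitals mark matches to the motifs searched on both strands. They were the nuclear receptor core AGGTCA, the full cAMP response element TGACGTCA, its core TGACG (which the full element contains), the E-box CACGTG and the TATA box TATAAA.
Klb, chr5:65348161-65348410, plus strand: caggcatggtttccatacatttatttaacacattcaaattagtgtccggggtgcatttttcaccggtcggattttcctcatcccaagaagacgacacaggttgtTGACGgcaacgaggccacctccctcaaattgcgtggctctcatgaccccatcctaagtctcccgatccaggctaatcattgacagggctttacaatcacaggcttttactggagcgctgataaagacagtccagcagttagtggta
Fgf21, chr7:45615491-45615740, minus strand: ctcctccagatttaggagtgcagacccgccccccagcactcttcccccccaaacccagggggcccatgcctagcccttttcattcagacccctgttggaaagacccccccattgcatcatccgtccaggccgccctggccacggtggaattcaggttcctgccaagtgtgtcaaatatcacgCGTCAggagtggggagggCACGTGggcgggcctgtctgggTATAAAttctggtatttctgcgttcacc
The Klb window held 1 match, the core TGACG at 146 to 142 bases before the start. The Fgf21 window held TGACG on the opposite strand at 68 to 64 bases (written CGTCA), the E-box at 50 to 45 and TATAAA at 28 to 23 bases before the start. Over 32851 upstream windows of the same length, TGACG was found in 17.8%, CACGTG in 6.02%, TATAAA in 12.4%, AGGTCA in 14.0% and TGACGTCA in 1.55%. GC content was 48.0% in the Klb window and 59.6% in the Fgf21 window, against a median of 52.4% over all windows, and each of the 2 held 9 CG pairs against a median of 6. A match of letters is a description and not a binding site.

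Arrays differed in ways that touch these genes. The array's controls for Gapdh read its transcript at the 3′ end and at the 5′ end. The signals of these ends, whose difference grows as RNA is degraded, differed by more than log2 2 on 3 arrays (2 and 3 of control at 1 week, 3 of cold at 5 weeks; 3.00 to 3.12) and by -0.08 to 0.96 on the other 9. The same measure for Actb was 1.84 to 2.80 in cold at 5 weeks and 1.01 to 1.35 on the other 9 arrays. Skeletal muscle markers (9 of 10 tested, Myh2 was not) had a mean log2 signal of 8.71 to 8.89 in control at 5 weeks against 4.40 to 4.61 in cold at 5 weeks. At 1 week it was 4.86 to 5.61 in control and 4.78 to 10.8 in cold, where array 2 was the high one. Values without the 3 arrays are given below where they change a call; 1 array of control at 1 week is left in that fit, where its spread is taken to equal that of the remaining groups.

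At 1 week, calls among the members were no more frequent than over all tested probe sets. At 1 week, 2 of the 10 tested probe sets rose (both of Fgf1), 2 fell (both of Fgfr1) and 6 did not pass the test (limma over 26510 probe sets, 2-sided, Benjamini-Hochberg adjusted p under 0.05). At 5 weeks 3 rose (both of Fgf1 and that of Klb), 2 of Fgfr1 fell and 5 did not pass. Over all tested probe sets 44.7% were called at 1 week (17.5% higher, 27.2% lower) and 31.1% at 5 weeks (12.6% higher, 18.5% lower). The 4 calls among 10 at 1 week do not exceed that share, and the 5 among 10 at 5 weeks rest on few probe sets. One fall at each time is that of Fgfr1 1436551_at, which passed the filter only through control arrays, and this favours a fall in the cold. Among the other 9 probe sets 3 and 4 calls remain. The median change of the 10 was log2 0.12 at both times, against -0.04 and -0.02 over all tested probe sets. When each array was centred on its median, the median of all probe sets moved to 0.12 at 1 week and 0.13 at 5 weeks. The share of higher among called probe sets then went from 39.1% to 60.9% at 1 week and from 40.5% to 67.1% at 5 weeks; with quantile normalization it was 47.6% and 51.5%. The changes below are on the deposited scale.

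**Figure D1:**
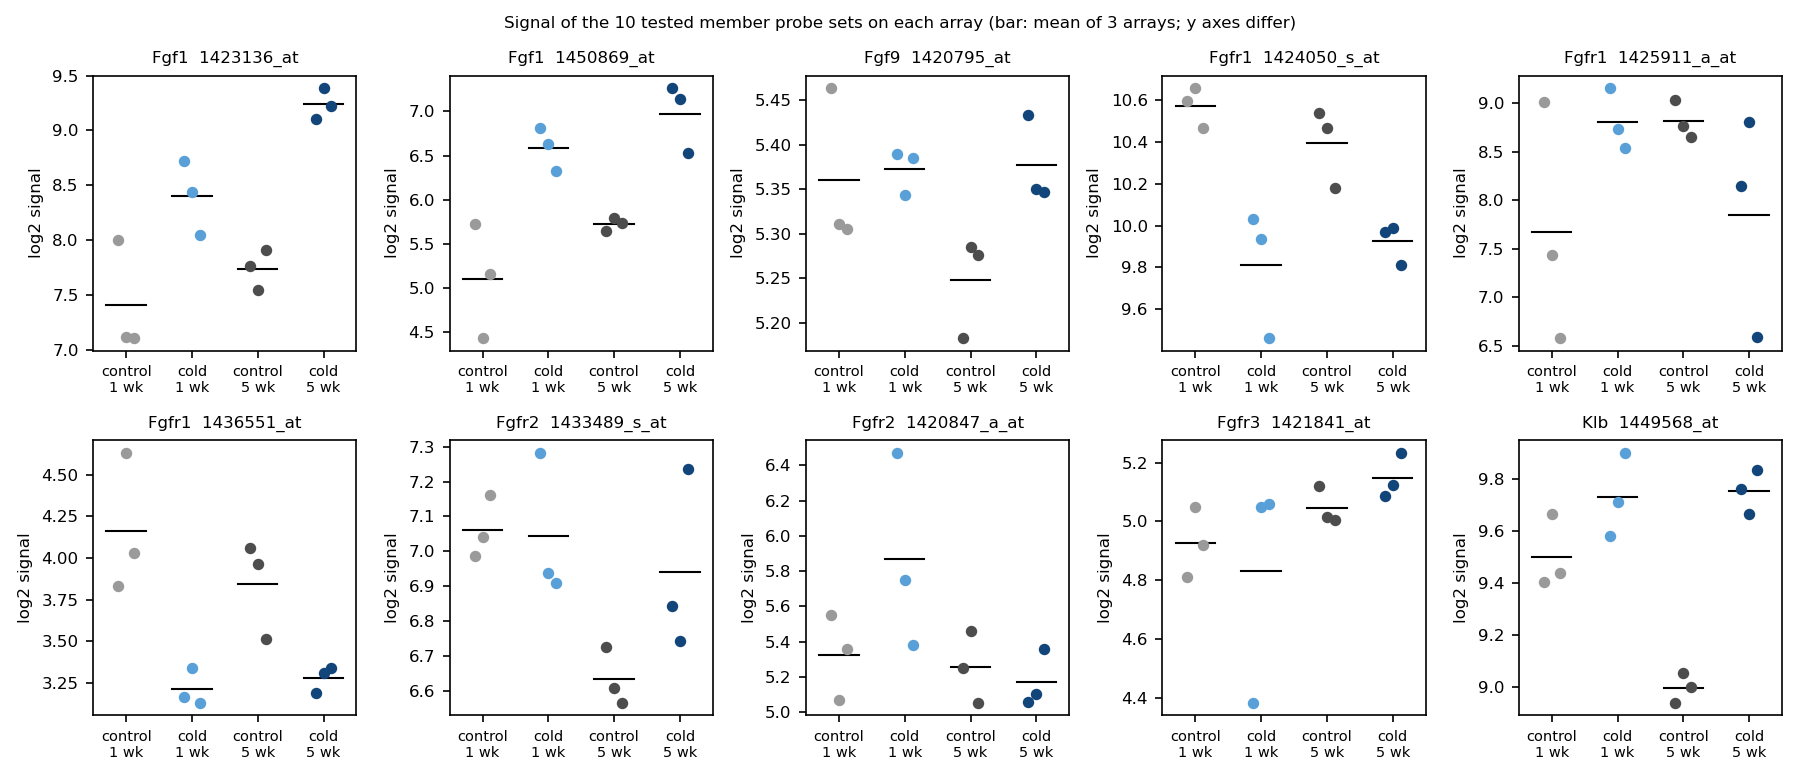
Log2 signal (y axes, which differ between panels) of the 10 tested probe sets on each of the 12 arrays, by group; points are arrays and bars the mean of 3. Both Fgf1 probe sets are higher in cold at both times, Fgfr1 1424050_s_at is lower, and Klb stands out by its low control arrays at 5 weeks (8.94 to 9.05).

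Fgf1, a heparin-binding ligand that activates all the FGF receptors, was the only ligand of the 5 with a called change. On probe set 1423136_at its log2 signals were 8.00, 7.12 and 7.11 in control and 8.72, 8.44 and 8.04 in cold at 1 week. At 5 weeks they were 7.77, 7.54 and 7.91 in control and 9.11, 9.39 and 9.22 in cold. All cold arrays lay above all control arrays of the same week, narrowly at 1 week, where the first control array (8.00) came close to the third cold array (8.04). Group means were 7.41 ± 0.51 and 8.40 ± 0.34 at 1 week and 7.74 ± 0.19 and 9.24 ± 0.14 at 5 weeks (SD, n = 3). The rise was log2 0.99 (SE 0.24; 1.99-fold; limma adjusted p = 0.00668) at 1 week and 1.50 (SE 0.24; 2.82-fold; adjusted p = 9.99e-04) at 5 weeks.

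A second Fgf1 probe set, 1450869_at, moved the same way. It read 5.72, 4.43 and 5.16 in control and 6.81, 6.63 and 6.33 in cold at 1 week, then 5.64, 5.79 and 5.74 in control and 7.27, 7.14 and 6.52 in cold at 5 weeks. The groups did not overlap at either time. Its rise was log2 1.49 (SE 0.29; 2.80-fold; limma adjusted p = 0.00196) at 1 week and 1.25 (SE 0.29; 2.38-fold; adjusted p = 0.00765) at 5 weeks. The difference between the cold effects at the 2 times did not pass the test for either probe set (0.51, adjusted p = 0.321, and -0.23, adjusted p = 0.725).

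The size of the Fgf1 rise at 1 week depended on control arrays 2 and 3, 2 of the arrays with a high Gapdh difference, which held its lowest signals. Without both, the rise was log2 0.40 (limma adjusted p = 0.299) on 1423136_at and 0.87 (adjusted p = 0.0646) on 1450869_at; without all 3 arrays the second was called (0.87, adjusted p = 0.0170). With the Gapdh difference as a covariate they were 0.56 (adjusted p = 0.226) and 0.77 (adjusted p = 0.0931). At 5 weeks the rise was as large without the 3 arrays, at 1.51 (adjusted p = 0.00223) and 1.48 (adjusted p = 6.28e-04). The third Fgf1 probe set, 1441042_at, read 2.72 to 2.93 on the 12 arrays, near background.

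Fgf9, a ligand of epithelial and mesothelial sources known from organ development, had 1 tested probe set (1420795_at) with little spread. Its signals were 5.46, 5.31 and 5.31 in control and 5.39, 5.34 and 5.38 in cold at 1 week, and 5.18, 5.28 and 5.28 in control and 5.43, 5.35 and 5.35 in cold at 5 weeks. The groups overlapped at 1 week, while at 5 weeks the cold arrays lay above the control arrays by a small margin. The difference was log2 0.01 (95% confidence interval -0.16 to 0.18; limma adjusted p = 0.909) at 1 week and 0.13 (-0.04 to 0.30; adjusted p = 0.235) at 5 weeks. It passed the test at 5 weeks when arrays were centred on their median (0.28, adjusted p = 0.0236). Its other probe set, 1438718_at, lay near background at 2.43 to 2.67.

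Fgf2, Fgf10 and Fgf21 each had 1 probe set, and each lay below log2 4 on all 12 arrays. Fgf21, the endocrine ligand, read 2.41, 2.26 and 2.45 in control and 2.47, 2.56 and 2.92 in cold at 1 week, and 2.41, 2.42 and 2.41 in control and 2.46, 2.59 and 2.45 in cold at 5 weeks on 1422916_at. The highest value was that of 1 cold array at 1 week, still under the filter. Fgf2, a ligand made by vascular and stromal cells, read 2.81 to 3.36 on 1449826_a_at, with cold above control at 1 week and an overlap at 5 weeks. Fgf10, a ligand made by mesenchymal and precursor cells, read 2.88 to 3.04 on 1420690_at. At this signal no fold is given, and a low signal on these probe sets does not show that the transcript was absent.

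The 8 probe sets near background read 1.91 to 3.36 in all and still leaned one way. Cold minus control was above 0 in 8 of 8 at both times, by 0.03 to 0.28 at 1 week and 0.02 to 0.15 at 5 weeks, and the 3 cold arrays lay above the 3 control arrays in 8 of 8 at 1 week and 7 of 8 at 5 weeks. The same lean was present over all 18527 probe sets under the filter. Of these 89.9% and 90.1% were above 0, 74.5% and 74.9% had 3 cold arrays above 3 control arrays, and the median shift was 0.09 at both times. The lean of the 8 is read against this background. When the filter was dropped, limma called 1 of the 8 at 1 week (Fgf9, 0.13, adjusted p = 0.0387) and 2 at 5 weeks (Fgf9, 0.13, adjusted p = 0.0483, and Fgf1, 0.15, adjusted p = 0.0243).

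**Figure D2:**
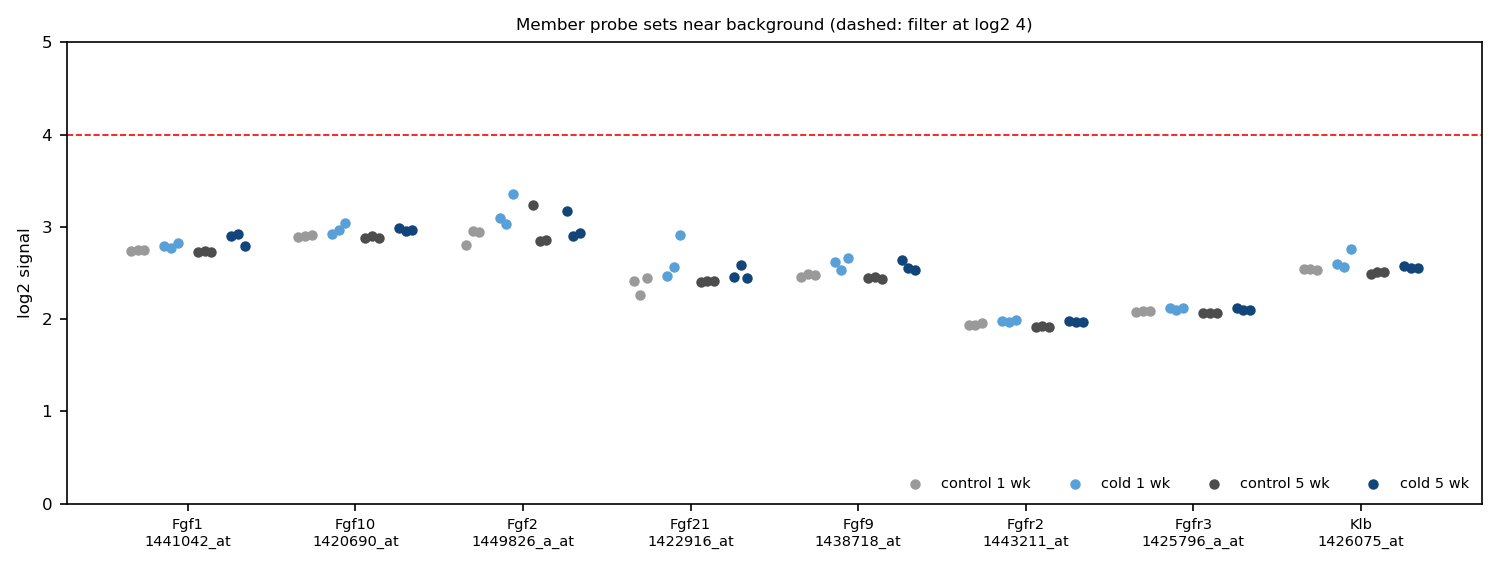
Log2 signal (y axis) of the 8 probe sets near background on each array, coloured by group; the dashed line is the filter at 4. All values lie between 1.91 and 3.36, Fgf21 between 2.26 and 2.92.

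Fgfr1, the main FGF receptor of adipocytes and of their precursors, was measured by 3 tested probe sets that did not move together. On 1424050_s_at the signals were 10.60, 10.66 and 10.47 in control and 10.03, 9.93 and 9.46 in cold at 1 week, and 10.54, 10.47 and 10.18 in control and 9.97, 9.99 and 9.81 in cold at 5 weeks. Every cold array lay below every control array of its week. Group means were 10.57 ± 0.098 and 9.81 ± 0.30 at 1 week and 10.40 ± 0.19 and 9.92 ± 0.098 at 5 weeks (SD, n = 3). The signal fell by log2 0.76 (SE 0.15; 1.70-fold lower; limma adjusted p = 0.00208) at 1 week and by 0.47 (SE 0.15; 1.39-fold lower; adjusted p = 0.0347) at 5 weeks, and the 2 effects did not differ beyond the test (0.29, adjusted p = 0.359).

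The fall at 1 week kept its size without the 3 arrays with a high Gapdh difference, at -0.79, with an adjusted p of 0.0518 (limma). That at 5 weeks was closer to the threshold. It missed the threshold in 6 of the 13 alternatives. Among these were arrays centred on their median (-0.32, limma adjusted p = 0.104), the muscle covariate (-0.33, adjusted p = 0.345), the Actb covariate (-0.44, adjusted p = 0.486) and the fit without the 3 arrays (-0.41). The call was also lost without any 1 of control arrays 1 and 2 or cold arrays 1, 2 and 3 at 5 weeks (-0.40 to -0.58 over all 12 fits that left out 1 array). Adipose progenitor and fibroblast markers, cells that also carry Fgfr1, moved in the same direction. Of 8 tested of 10 (Ly6a and Dlk1 were not), 7 fell and none rose at 1 week and 4 fell and none rose at 5 weeks. Over all genes 30.5% and 19.9% fell. Markers of other cell types fell too: 9 of 9 tested lymphocyte markers at both times, and 7 and 8 of 10 macrophage markers. The mean log2 signal of the progenitor markers was 10.8 to 11.0 in control and 10.1 to 10.3 in cold at 1 week, and 10.4 to 10.6 in control and 10.1 to 10.2 in cold at 5 weeks. Leaving out the 3 arrays, fewer progenitor markers were called, as was so over all probe sets. Their median change was then log2 -0.58 at 1 week and -0.47 at 5 weeks. With the Actb covariate none of the 8 was called at 5 weeks, and with the muscle covariate 1 fell. Over all tested probe sets the Actb fit called 3.98% and the muscle fit 15.7% at that time. The part of these cells in the fall of Fgfr1 was not tested, and in bulk tissue fewer cells of a type and less RNA per cell cannot be told apart.

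A second Fgfr1 probe set, 1425911_a_at, spread widely within groups. It read 9.01, 7.43 and 6.58 in control and 9.16, 8.74 and 8.54 in cold at 1 week, and 9.04, 8.77 and 8.66 in control and 8.15, 8.80 and 6.59 in cold at 5 weeks. The 3 low values, 6.58 to 7.43, belong to the 3 arrays with a Gapdh difference above 2, and the other 9 arrays read 8.15 to 9.16. The change was log2 1.14 (95% confidence interval -0.20 to 2.47; limma adjusted p = 0.149) at 1 week and -0.98 (-2.31 to 0.36; adjusted p = 0.248) at 5 weeks. Without the 3 arrays it was -0.20 (adjusted p = 0.680) and -0.35 (adjusted p = 0.332), so the sign at 1 week turned. The difference of the 2 effects, -2.11, did not pass the test (adjusted p = 0.106).

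The third, 1436551_at, sat at the filter and passed it only through 3 control arrays. It read 3.83, 4.63 and 4.03 in control and 3.17, 3.34 and 3.13 in cold at 1 week, and 4.06, 3.96 and 3.52 in control and 3.19, 3.31 and 3.34 in cold at 5 weeks. All cold arrays were below 4. With signals below 4 set to 4 in both groups, cold was 1.17-fold lower at 1 week and 1.01-fold lower at 5 weeks. Control arrays under 4 were raised too (3.83 at 1 week, 3.96 and 3.52 at 5 weeks), so these folds are not lower bounds. Group means were 4.16 and 3.21 at 1 week and 3.85 and 3.28 at 5 weeks, with limma adjusted p = 0.00275 and 0.0489. Without the 3 arrays the adjusted p was 0.0773 at 1 week and 0.0342 at 5 weeks. The 5 week call was lost in 9 of the 12 fits that left out 1 array, and with no filter (adjusted p = 0.0639), centred arrays (0.104), the muscle covariate (0.402) and the Actb covariate (0.398). Because the probe set had to be high in control to be tested, its calls are no support for a fall of Fgfr1.

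**Figure D3:**
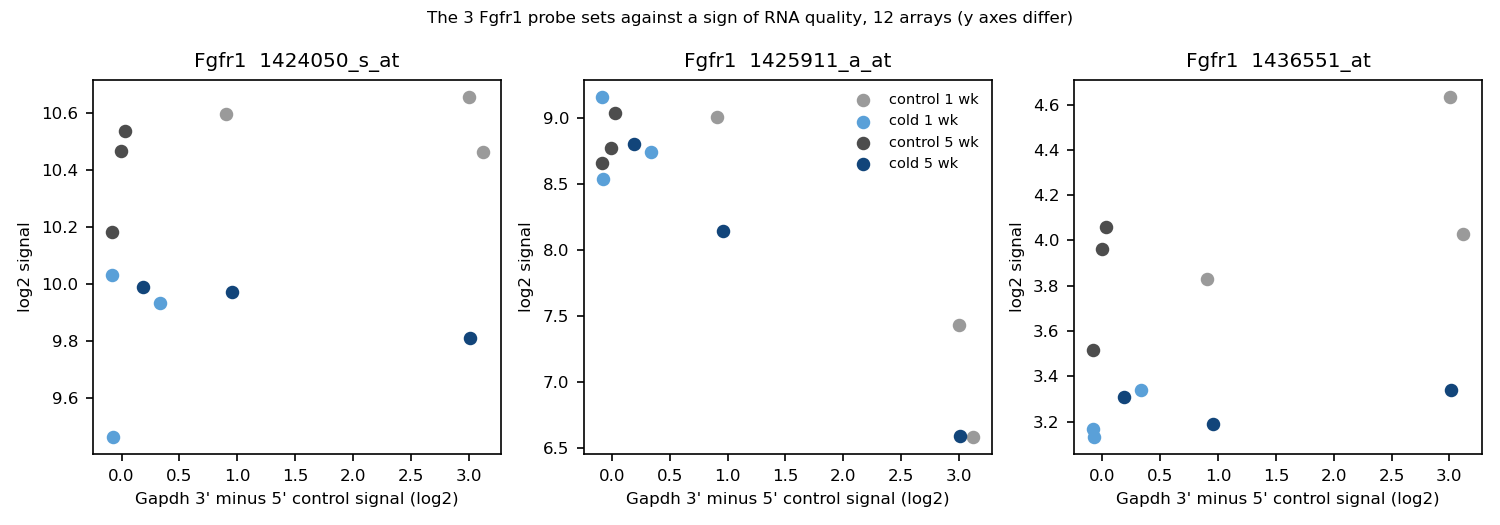
Log2 signal of the 3 Fgfr1 probe sets (y axes, which differ) against the Gapdh difference, 3′ minus 5′ control signal (x axis, log2), for 12 arrays, coloured by group. On 1425911_a_at the 3 arrays above 2 read 6.58 to 7.43 and the other 9 read 8.15 to 9.16. On 1424050_s_at cold lies below control among the 9 arrays at low x. Above 2 are cold array 3 of 5 weeks (9.81) and control arrays 2 and 3 of 1 week (10.66 and 10.47). No week has both groups there.

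Fgfr2, whose splice forms serve epithelial and mesenchymal cells, gave no called change on 2 tested probe sets on the deposited scale. On 1433489_s_at it read 6.99, 7.04 and 7.16 in control and 7.28, 6.94 and 6.91 in cold at 1 week, and 6.73, 6.61 and 6.57 in control and 6.84, 6.75 and 7.24 in cold at 5 weeks. The groups overlapped at 1 week, and at 5 weeks the cold arrays lay just above the control arrays. The difference was log2 -0.02 (95% confidence interval -0.33 to 0.29; limma adjusted p = 0.924) at 1 week and 0.31 (-0.003 to 0.62; adjusted p = 0.121) at 5 weeks. With arrays centred on their median or quantile normalized, the 5 week difference was called (0.46, adjusted p = 0.0254, and 0.44, adjusted p = 0.0376).

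On 1420847_a_at Fgfr2 read 5.55, 5.07 and 5.36 in control and 6.47, 5.75 and 5.38 in cold at 1 week, and 5.25, 5.46 and 5.05 in control and 5.06, 5.10 and 5.36 in cold at 5 weeks. The first cold array at 1 week was the highest, and the groups overlapped at both times. The difference was 0.54 (95% confidence interval 0.01 to 1.07; limma adjusted p = 0.0883) at 1 week and -0.08 (-0.61 to 0.45; adjusted p = 0.826) at 5 weeks. The 1 week difference passed the test with centred arrays (0.70, adjusted p = 0.0291) and without cold array 3 (0.78, adjusted p = 0.0196). The first cold array also had the highest mean of the epithelial markers (5.61, against 4.80 to 5.29 on the other arrays), of which 3 of 12 were tested; its part in the Fgfr2 value was not tested. The third Fgfr2 probe set, 1443211_at, read 1.91 to 1.99.

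Fgfr3, a receptor best known from cartilage and epithelia, stayed low on 1421841_at. It read 4.81, 5.05 and 4.92 in control and 4.38, 5.05 and 5.06 in cold at 1 week, and 5.12, 5.01 and 5.01 in control and 5.09, 5.13 and 5.23 in cold at 5 weeks. The groups overlapped at both times. The difference was log2 -0.09 (95% confidence interval -0.45 to 0.26; limma adjusted p = 0.649) at 1 week and 0.10 (-0.25 to 0.45; adjusted p = 0.666) at 5 weeks. The other Fgfr3 probe set, 1425796_a_at, read 2.07 to 2.13.

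Klb, the co-receptor without which Fgf21 does not signal, was higher in the cold at 5 weeks. On 1449568_at it read 9.40, 9.66 and 9.44 in control and 9.58, 9.71 and 9.90 in cold at 1 week, and 8.94, 9.05 and 8.999 in control and 9.76, 9.66 and 9.83 in cold at 5 weeks. The groups overlapped at 1 week and lay clearly apart at 5 weeks. Group means were 9.50 ± 0.14 and 9.73 ± 0.16 at 1 week and 8.997 ± 0.057 and 9.75 ± 0.085 at 5 weeks (SD, n = 3). The rise was log2 0.76 (SE 0.11; 1.69-fold; limma adjusted p = 4.63e-04) at 5 weeks, and at 1 week the difference was 0.23 (95% confidence interval -0.01 to 0.46; adjusted p = 0.102). The 1 week difference passed the test with centred arrays (0.39, adjusted p = 0.0128) and with quantile normalization (0.34, adjusted p = 0.0261). The other Klb probe set, 1426075_at, read 2.50 to 2.76.

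Klb was also the only member whose cold effect differed between the times by test, by log2 0.53 (SE 0.15; limma adjusted p = 0.0338), where 19.6% of all tested probe sets were called. Between 1 and 5 weeks Klb fell by 0.50 in control (adjusted p = 0.0311), where 3.33% of all probe sets were called, and in cold it differed by 0.02 (adjusted p = 0.899). The fall in control was lost in 6 of the 12 fits that left out 1 array (-0.42 to -0.55 over the 12). It was also lost without the 3 arrays (-0.41), a fit with 1 array of control at 1 week. The same held with the Gapdh covariate (-0.37, limma adjusted p = 0.397), the muscle covariate (-0.50, adjusted p = 0.110) and the Actb covariate (-0.49, adjusted p = 0.0545). Over all tested probe sets those covariate fits called 0.38%, 2.24% and 2.57% for weeks in control. The 5 week rise was 0.72 without the 3 arrays with a high Gapdh difference, and 0.75 (limma adjusted p = 0.0134) with the muscle marker mean as a covariate. Muscle markers split the 5 week groups on every array, so the latter fit cannot tell their part from that of the cold. The difference between the times was no longer called without the 3 arrays (0.39). Its call was also lost with the Gapdh covariate (0.32, limma adjusted p = 0.649), the Actb covariate (0.43, adjusted p = 0.712) and the muscle covariate (0.52, adjusted p = 0.171). Over all tested probe sets those covariate fits called 0.019%, 0% and 6.41% for this difference. A call lost with the Gapdh or Actb covariate is thus not particular to Klb. In 8 of the 12 fits that left out 1 array the call was lost too (0.45 to 0.61 over the 12).

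**Figure D4:**
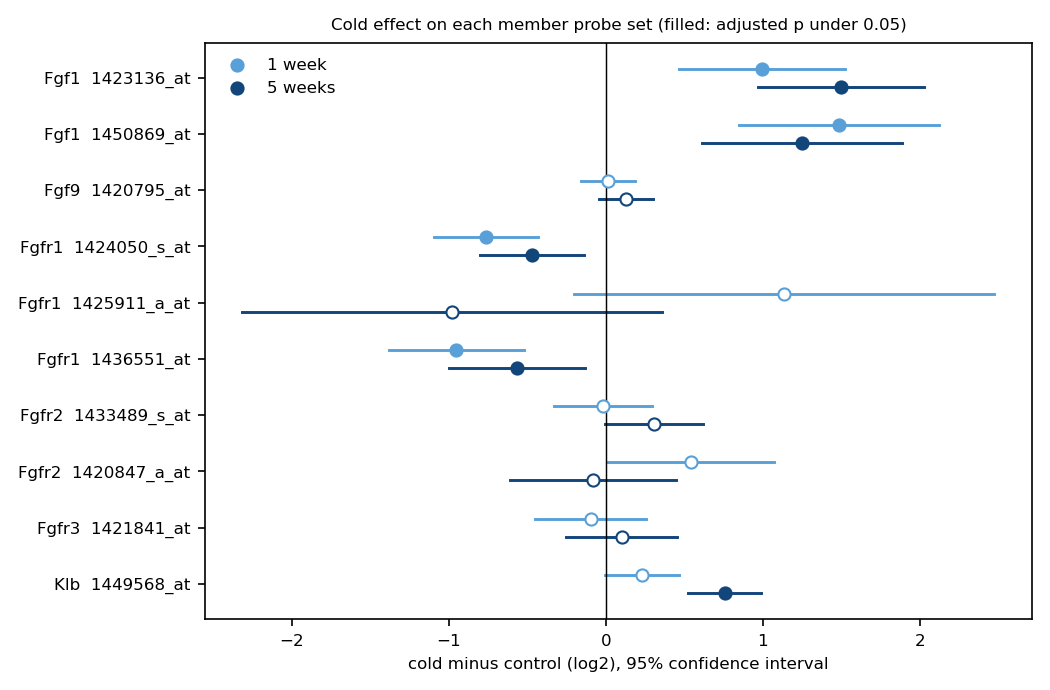
Cold minus control (x axis, log2) with its 95% confidence interval for the 10 tested probe sets at 1 and 5 weeks; filled points passed the test. Both Fgf1 probe sets lie to the right at both times, Klb clears 0 at 5 weeks (0.76), and the intervals of Fgfr1 1425911_a_at span more than any other.

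For the 5 week calls, the Actb difference and the cold group cannot be told apart, since it was high on all cold arrays of that time and on no other array. With it as a covariate no member was called at 5 weeks, although the values stayed on the same side: 1.39 (limma adjusted p = 0.171) and 1.95 (adjusted p = 0.0902) for the Fgf1 probe sets and 0.66 (adjusted p = 0.134) for Klb. Over all tested probe sets that fit called 3.98% at 5 weeks. With the muscle marker mean as a covariate, Fgf1 was called on 1423136_at (1.52, limma adjusted p = 0.0232) and not on 1450869_at (1.24, adjusted p = 0.0893). The muscle marker mean also set all control arrays apart from all cold arrays at 5 weeks (8.71 to 8.89 and 4.40 to 4.61). At that time its part and that of the cold cannot be told apart.

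Between 1 and 5 weeks in the cold, 1 member probe set differed, Fgf1 1423136_at, which was log2 0.84 higher at 5 weeks (SE 0.24; limma adjusted p = 0.0253; 28.4% of all probe sets called). Its 3 arrays at 5 weeks, 9.11 to 9.39, lay above the 3 at 1 week, 8.04 to 8.72. The other tested Fgf1 probe set gave 0.39 (adjusted p = 0.346), with overlapping arrays, and was called without the 3 arrays (0.61, adjusted p = 0.0261) and with the Gapdh covariate (0.80, adjusted p = 0.0487). The call of 1423136_at was lost with no filter, with the muscle covariate and with the Actb covariate, and without cold array 3 at 1 week or without cold array 2 or 3 at 5 weeks (0.66 to 1.00 over all 12 such fits).

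Other genes of the pathway were counted from lists, with the brightest probe set for each gene. Over all genes 17.1% were higher and 30.5% lower at 1 week, and 13.9% higher and 19.9% lower at 5 weeks; the median gene changed by -0.08 and -0.03. Counts without the 3 arrays are to be read against the same fit over all tested probe sets, which called 19.6% at 1 week and 27.0% at 5 weeks, against 44.7% and 31.1% with all arrays. With centred arrays 51.1% of all tested probe sets were called at 1 week and 37.5% at 5 weeks, 60.9% and 67.1% of them higher. At 5 weeks 3.98% of all tested probe sets were called with the Actb covariate and 15.7% with the muscle covariate. Counts with these covariates are to be read against those shares. Of 17 other genes of the FGF family 5 were tested, and 3 fell at 1 week and 1 at 5 weeks, none rising (median -0.76 and -0.07). Fgf7, a stromal ligand for epithelial receptors, fell by 1.28 (limma adjusted p = 4.37e-04) and Fgf11 by 1.07 (adjusted p = 0.00303) at 1 week. Fgf11, Fgf13 and Fgf14 are intracellular homologues that are not secreted receptor ligands, so Fgf7 was the only secreted ligand among the 3 falls at 1 week. Fgf13 fell by 0.76 and 0.89 (adjusted p = 0.0161 and 0.0103). Of 4 other receptors and co-receptors 2 were tested, Fgfr4 and the kinase-less Fgfrl1, and neither passed the test at either time. Without the 3 arrays with a high Gapdh difference, 1 of these genes fell at each time; with centred arrays 2 rose and 3 fell at 1 week, and 1 rose and 1 fell at 5 weeks. With the Actb or the muscle covariate the fall at 5 weeks was not called.

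Genes of heparan sulfate, its carriers and FGF carriers leaned down at 1 week: of 19 tested of 21, 1 rose and 10 fell (median -0.46), and at 5 weeks 2 fell (median -0.23). Glce, an epimerase of heparan sulfate synthesis, fell by 0.88 (limma adjusted p = 1.55e-04), Sulf2, which trims its sulfate groups, by 0.79, and the carrier Sdc2 by 0.67. Sdc4, another carrier with low signals (4.78 to 5.69), rose by 0.61 at 1 week (limma adjusted p = 9.83e-04) and fell by 0.33 at 5 weeks (adjusted p = 0.0350). Between 1 and 5 weeks it rose by 0.75 in control (limma adjusted p = 0.00564) and differed by -0.19 in cold (adjusted p = 0.205). Control arrays 2 and 3 at 1 week are among those with a high Gapdh difference. Without the 3 arrays with a high Gapdh difference 3 fell at 1 week and none rose; with centred arrays 3 rose and 7 fell. Neither the Actb nor the muscle covariate left a call in this list at 5 weeks.

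Among adaptors and kinases from receptor to ERK, 18 of 25 were tested. At 1 week 1 rose and 8 fell (median -0.24), and at 5 weeks 3 rose and 7 fell (median -0.11). Pik3r1, the regulatory subunit of PI3 kinase, fell by 0.98 (limma adjusted p = 8.46e-04), and Rps6ka3, a kinase below ERK, by 0.92 at 1 week. At 5 weeks Stat3 fell by 1.22 (adjusted p = 5.90e-04), and Ptpn11, the phosphatase that couples Frs2 to Ras, rose by 0.64 (adjusted p = 0.00114). With the 3 arrays left out, 1 rose and 3 fell at 1 week, and 2 rose and 5 fell at 5 weeks. With centred arrays 4 rose and 5 fell at 1 week and 4 rose and 3 fell at 5 weeks. The balance at 5 weeks turned, as it did over all called probe sets, where the share of higher went from 40.5% to 67.1%. With the Actb covariate 0 of 18 were called at 5 weeks, which ends the calls of Stat3 and Ptpn11, where 3.98% of all tested probe sets were called. With the muscle covariate 1 rose and 3 fell, where 15.7% of all tested probe sets were called.

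Feedback inhibitors and targets of FGF signalling, of which 16 of 21 were tested, had 1 rise and 4 falls at 1 week (median -0.23) and 7 falls at 5 weeks (median -0.47). Dusp6, the ERK phosphatase that ERK itself induces, rose by 0.47 at 1 week (limma adjusted p = 0.0353) and fell by 0.64 at 5 weeks (adjusted p = 0.0117). These effects differed by -1.11 (limma adjusted p = 0.0108), where 19.6% of all tested probe sets were called. With the Actb covariate 0 of 26510 probe sets were called for that difference, so this call was lost as well. Ier2, an immediate early gene, fell by 1.55 (adjusted p = 7.97e-05), and Etv5, a transcription factor induced by FGF, by 1.02 (adjusted p = 9.99e-04) at 5 weeks. Flrt2 and Spred1 fell by 1.38 and 1.26 at 1 week (limma adjusted p = 0.00168 and 0.00250). Myc fell by 0.82 at 1 week and 0.97 at 5 weeks (adjusted p = 0.00554 and 0.00336). With the 3 arrays left out, 1 rose and 2 fell at 1 week and 6 fell at 5 weeks; with centred arrays 1 rose and 3 fell, and 6 fell. Dusp6, the 1 riser at 1 week, was no longer called with the muscle covariate or without cold array 2, the array with high muscle markers; 4 genes fell and none rose in either fit. With the Actb covariate 1 fell at 5 weeks, and with the muscle covariate 2.

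Factors known to regulate Fgf21, of which 14 of 14 were tested, had 4 rises and 4 falls at each time (median -0.05 and 0.03). Ppara, a nuclear receptor that induces Fgf21 in liver, rose by 2.09 and 2.52 (limma adjusted p = 0.00121 and 6.32e-04). Ppargc1a, its coactivator, rose by 1.64 and 1.79 (adjusted p = 4.09e-05 and 3.42e-05). Atf4, the stress factor that acts on the Fgf21 gene, fell by 1.00 at 1 week (adjusted p = 7.76e-04), and Creb1 by 1.25 (adjusted p = 5.39e-04). Leaving out the 3 arrays gave 3 rises and 2 falls at each time, and at 5 weeks the Actb covariate gave 1 rise and the muscle covariate 3 rises and 1 fall. Beside these changes the Fgf21 probe set stayed between 2.26 and 2.92 on every array.

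**Figure D5:**
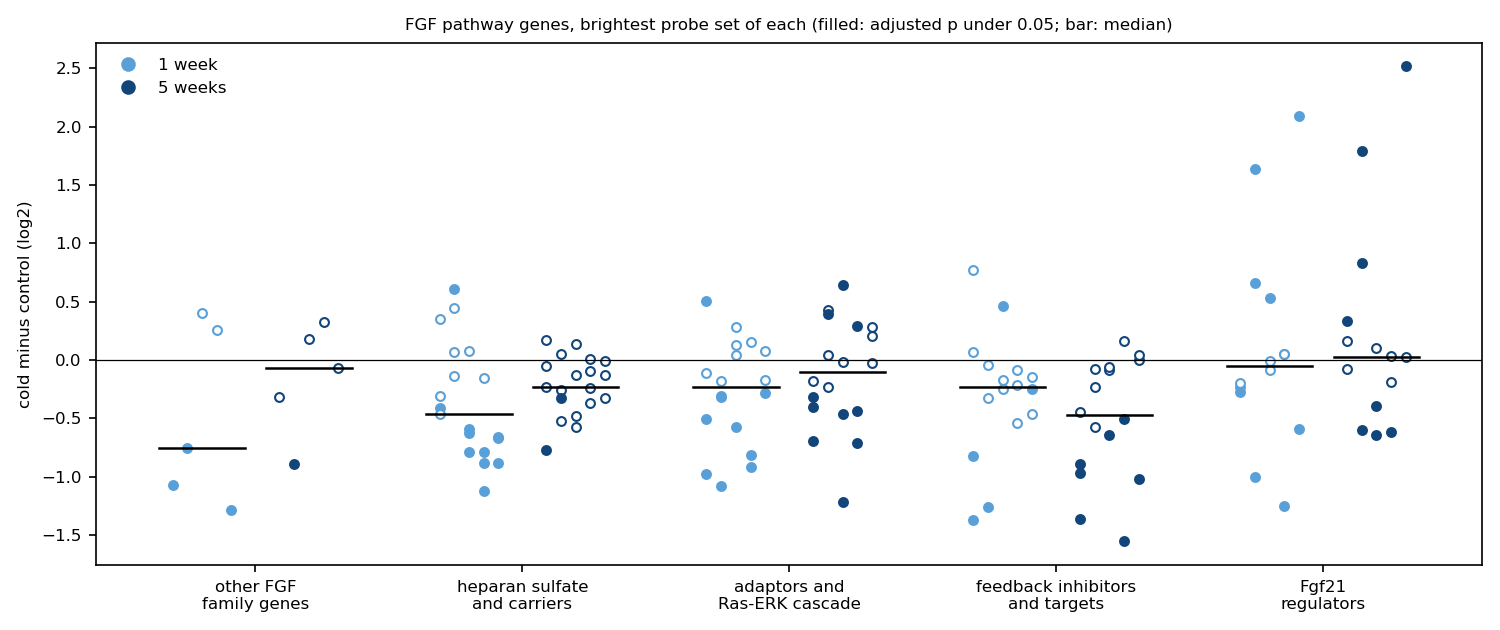
Cold minus control (y axis, log2) of the tested genes in 5 pathway lists at 1 and 5 weeks, 1 point a gene at its brightest probe set; filled points passed the test and bars are medians. The heparan sulfate genes at 1 week (median -0.46) and the feedback inhibitors and targets at 5 weeks (median -0.47) lie mostly below 0, and Fgf21 regulators spread on both sides.

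The genes whose signal was most like that of a member over the 12 arrays are given as a description, since arrays share their groups and any gene that follows the groups will rank high. For Fgf1 1423136_at they were Pck1, the enzyme of glyceroneogenesis (r = 0.982), Scp2, a sterol carrier (0.971), and Grtp1 (0.966). For Fgfr1 1424050_s_at they were Cp, the copper protein ceruloplasmin (0.986), Igfbp4, a binding protein of insulin-like growth factors (0.978), and Dpt, the matrix protein dermatopontin (0.959). For Klb 1449568_at they were Dnajb9, a cochaperone of the endoplasmic reticulum (0.966), Rgs2, a regulator of G protein signalling (0.949), and Nars2, a mitochondrial tRNA synthetase (0.942).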

How the data were processed

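The log2 signals, 1 for each probe set on each array, were deposited by the authors, who made them with GCRMA per the submitters' processing notes, in a version not given in the sources used here. There are 45101 probe sets in it, 64 of them controls, with 0 missing values and array medians of 4.79 to 4.89. Arrays of a group correlated at 0.991 to 0.998. Precision is limited by the number of arrays. Symbols came from the platform annotation, updated by gene identifier: 34958 probe sets named 1 gene, 932 several (none of them a member) and 9211 none.

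Probe sets above log2 4 on at least 3 arrays (26510) were tested with limma 3.58.1 in R 4.3.3, by lmFit and eBayes with 4 group means and 12 arrays, 2-sided, with Benjamini-Hochberg adjustment over all of them for each of 5 contrasts at 0.05. SE and 95% confidence intervals are from that fit. The script was tested on simulated data. Figures and counts used Python 3.11.15 and pandas 2.3.3.

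All probe sets of the 9 genes are described. Up to 4 genes per list and contrast, those with the smallest adjusted p, could be named, besides Ucp1, and the 3 genes most correlated with a member's brightest probe set. The members and lists were chosen with earlier results of these data known. Same-numbered arrays of different groups showed no shared deviation (r -0.17 to 0.16 over 18 pairs, against -0.33 to 0.28 over 36 differently numbered pairs). No pairing was used in the main fit, and groups of 3 arrays cannot exclude one. Alternatives are given in the closing section.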

Additional observations from a re-analysis of the deposited data

Results flagged for a closer look

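The cold effect on Klb (1449568_at) was larger at 5 weeks than at 1 week by log2 0.53 (limma adjusted p = 0.0338), a tested difference between the 2 times. Its cold minus control was 0.23 at 1 week and 0.76 at 5 weeks, and all 3 cold arrays lay above all 3 control arrays at 5 weeks only. The difference was no longer called without the 3 arrays with a high Gapdh difference (0.39), or in 8 of the 12 fits that left out 1 array. Its call was also lost with the muscle covariate (0.52, limma adjusted p = 0.171), the Gapdh covariate (0.32, adjusted p = 0.649) and the Actb covariate (0.43, adjusted p = 0.712). Over all tested probe sets those covariate fits called 6.41%, 0.019% and 0% for this difference, against 19.6% in the main fit. Groups of 3 arrays are too small for a check of single outlying arrays.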

How the results depend on the processing

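The fit was repeated under 13 alternatives besides leaving out single arrays, of which 2 were chosen after seeing the data (leaving out the 3 arrays with a Gapdh difference above 2, and the Actb difference as a covariate). Over probe sets, contrasts and alternatives, 554 of 600 values kept their side of the threshold, 36 were no longer called and 10 were newly called. No called value changed sign, while 54 values that were not called did. With single arrays left out, 565 of 600 kept their side, 31 were lost and 4 gained, and 17 values that were not called changed sign. The number of member probe sets called (4 at 1 week, 5 at 5 weeks, and 1 each for the difference of cold effects, weeks in control and weeks in cold) moved mainly as follows. With 1 probe set per gene, which leaves 6, it was 2 at 1 week and 3 at 5 weeks. With the Gapdh covariate it was 1 at 1 week, 0 for the difference and weeks in control, and 2 for weeks in cold. Without control arrays 2 and 3 at 1 week it was 1, 0 and 0 for 1 week, the difference and weeks in control. Without the 3 arrays it was 1, 0, 0 and, for weeks in cold, 2. With the muscle covariate it was 2 at 5 weeks, and 0 for the difference, weeks in control and weeks in cold. With the Actb covariate it was 0 at 5 weeks and 0 for the same 3. For weeks in cold it was 0 without a filter and 2 with centred or quantile normalized arrays. Leaving out single arrays gave 4 to 5 at 1 week, 3 to 5 at 5 weeks, 0 to 2 for the difference, 0 to 1 for weeks in control and 0 to 1 for weeks in cold. The replicate block left the counts at 4, 5, 1, 1 and 1. Over all probe sets, 18.5% were called at 1 week with the Gapdh covariate, and 15.7% with the muscle and 3.98% with the Actb covariate at 5 weeks, against 44.7% and 31.1%. For the difference of cold effects the Gapdh, Actb and muscle covariates called 0.019%, 0% and 6.41% over all probe sets, against 19.6%. Signal over background limits Fgf2, Fgf10 and Fgf21, which had no tested probe set.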
